A study of Drosophila melanogaster with 2 samples.

Results

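The 73 genes described here encode proteins of the mitochondrial ribosome of Drosophila melanogaster. They are the protein-coding genes on the 6 major chromosome arms whose names start with mRpL or mRpS followed by a digit, out of 13945 protein-coding genes on those arms, and they comprise 47 genes named for the large subunit and 26 named for the small subunit. Their promoters were read against a chromatin immunoprecipitation and sequencing (ChIP-seq) experiment on CG43347, which the labels also call by its older name CG9817. The material was whole embryos aged 10 to 24 h of a stable transgenic line in which green fluorescent protein (GFP) is joined to the C-terminus of this protein, and chromatin was precipitated with an antibody against GFP. All samples belong to 1 group of 2 biological replicates, numbered 1 and 3, so no conditions are compared and the tagged line is the only genotype. Whole embryos mix all cell types of the stage, the promoter that drives the fusion is not given in the sources used here, and no group without the tag was analysed. The data are 4 peak lists on dm6: 30000 peaks for each replicate, 30000 peaks called on both replicates together (the pooled list), and 5038 peaks that passed a threshold on the IDR (irreproducible discovery rate), a measure of how alike 2 replicates rank their peaks. With peaks alone, the depth of each library is unknown.

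Mitochondria carry their own small genome and translate its messages on a ribosome of bacterial descent. In animals, the ribosomal RNAs of this particle come from the mitochondrial genome, while its proteins are encoded in the nucleus, made in the cytoplasm and imported. Some of these proteins have bacterial counterparts, others are particular to mitochondria, and all the products of the mitochondrial messages belong to the oxidative phosphorylation machinery in animals. The genes are scattered over the chromosomes, and many sit head-to-head with an unrelated gene, so that both genes start from a shared stretch of DNA and are read in opposite directions.

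The stretches under the peaks are shown first, because the summit, the base of highest enrichment in a peak, lay between the 2 start sites in most of these pairs. Each line gives the 101 bases centred on the summit in the IDR-thresholded list, from the release 6 RefSeq assembly and on the strand of the named gene, 5′ to 3′. Capitals mark runs of 6 or more A or T bases. The 5 were chosen as the strongest members outside gene bodies on the arms whose sequence is shown here.
mRpS10 (chr3R:15229477-15229577, plus strand): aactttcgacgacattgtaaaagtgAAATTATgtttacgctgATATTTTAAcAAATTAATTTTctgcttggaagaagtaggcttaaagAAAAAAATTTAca
mRpS23 (chr2L:13835410-13835510, minus strand): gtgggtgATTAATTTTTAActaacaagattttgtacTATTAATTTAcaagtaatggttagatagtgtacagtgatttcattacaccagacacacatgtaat
mRpL24 (chr2L:4945459-4945559, minus strand): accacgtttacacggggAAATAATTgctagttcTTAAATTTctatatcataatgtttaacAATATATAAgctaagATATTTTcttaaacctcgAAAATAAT
mRpL20 (chr3L:13018073-13018173, minus strand): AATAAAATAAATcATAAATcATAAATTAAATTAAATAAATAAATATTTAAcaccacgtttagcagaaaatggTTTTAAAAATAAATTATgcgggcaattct
mRpS2 (chr2L:4850513-4850613, minus strand): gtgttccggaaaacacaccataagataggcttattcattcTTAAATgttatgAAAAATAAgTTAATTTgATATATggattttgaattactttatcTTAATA
Their A + T content ranged from 71.3% in mRpS23 to 81.2% in mRpL20, and every window held at least 2 such runs.

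A promoter peak was defined as a peak whose summit was at most 500 bp away from an annotated start site of transcription (TSS). In the IDR-thresholded list, 39 of the 73 genes had such a peak, or 53.4% (95% Wilson interval 42.1 to 64.4%), against 23.7% of all protein-coding genes. The pooled list gave 49 of 73 genes (67.1%), against 48.2% of all protein-coding genes. The full list of replicate 1 gave 61 genes (83.6%), where the share of all coding genes was 53.0%, and the full list of replicate 3 gave 47 (64.4%), where it was 45.4%. Both replicates' full lists held a promoter peak for 46 genes (63.0%), against 38.0% of all coding genes. The share was thus above the level of all coding genes in each list, and furthest above it, as a ratio, in the IDR-thresholded list. The intervals cover counting error over genes, which are not replicates, and no test was run. All 39 genes of the IDR-thresholded list also had a promoter peak in the other 3 lists, 10 more had one in the pooled list without reaching the IDR threshold, 13 had one in the list of either or both replicates but not in the pooled list, and 11 had none in any list. Of the 13945 coding genes, 5303 had a promoter peak in both replicates' full lists, 2088 in that of replicate 1 only and 1024 in that of replicate 3 only. For the 73 genes these counts were 46, 15 and 1. The share of coding genes with none in any list is not given here, so the 11 are a description.

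Both subunits took part. Of the genes named for the large subunit, 24 of 47 had a promoter peak in the IDR-thresholded list (51.1%, interval 37.2 to 64.7%), and of those named for the small subunit 15 of 26 (57.7%, interval 39.0 to 74.5%). The intervals overlap over most of their length. The names follow an older assignment, since in mammals the proteins corresponding to mRpS18A and mRpS30 are found in the large subunit.

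The peaks of these genes spread over the whole range of strength. Peaks were ranked by the signal the authors deposited, rank 1 being the strongest. The median rank of the 39 peaks was 2093 of 5038, from 2 to 4672, and that of the strongest promoter peak of all coding genes was 1888. When the list was divided by rank into 4 parts of equal size, 12, 12, 10 and 5 of the genes fell into them from the strongest to the weakest. Of the 3309 coding genes with a promoter peak, 1189, 872, 684 and 564 did, so the lean to the stronger parts was not particular to these genes. The 39 genes had 39 distinct peaks, none shared by 2 members though most also lay near a partner's TSS, and none had more than 1 promoter peak. Over all coding genes, 2311 distinct peaks served 3309 genes, and 244 genes had more than 1.

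The large-subunit gene with the strongest peak was mRpL41, which encodes a protein particular to mitochondrial ribosomes. Its peak at chr2R:15217576-15217989, with the summit 137 bp upstream of the TSS, had rank 2 in the IDR-thresholded list, in replicate 1 and in replicate 3. The deposited signal was 8221 in the pooled calls, 4343 in replicate 1 and 3891 in replicate 3. These 3 values come from lists on separate scales, so the ranks are what can be set side by side, and for mRpL41 they were equal. mRpL23 encodes a protein that, in bacteria, sits at the exit of the tunnel through which the growing chain leaves the ribosome. Its peak had rank 32, with rank 38 in replicate 1 and rank 32 in replicate 3, and its summit lay 60 bp downstream of the nearest of its 3 annotated TSSs, in an untranslated exon. mRpL24, at the same exit in bacteria, had rank 94, with ranks 71 and 135 in the replicates and a summit 148 bp upstream. mRpL20, whose bacterial counterpart binds ribosomal RNA early in assembly of the large subunit, had rank 187, with ranks 240 and 177. The remaining large-subunit genes among the 12 strongest were mRpL34, at rank 566 with replicate ranks of 469 and 697, and mRpL37, a protein particular to mitochondria, at rank 667 with replicate ranks of 588 and 788.

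Among the small-subunit genes, mRpS10 led with rank 4. Its product belongs to the head of the small subunit, and its peak at chr3R:15229347-15229717 had rank 3 in replicate 1 and rank 6 in replicate 3, with summits 135 and 138 bp upstream of the TSS. mRpS23 followed at rank 23, with ranks 35 and 19 in replicates 1 and 3. Its summit lay 388 bp upstream of its own TSS and 104 bp from that of the partner CenG1A, a regulator of small GTPases. The peak was thus nearer the partner than the ribosomal gene. mRpS2 had rank 327, with replicate ranks of 448 and 262, and mRpS6 had rank 679, with replicate ranks of 379 and 1297. mRpS26 and mRpS21 had ranks 1157 and 1233. Of the 12 strongest genes, 6 belong to each subunit by name.

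The 4 weakest peaks of the IDR-thresholded list among these genes had ranks of 4098 for mRpS17, 4216 for mRpS25, 4529 for mRpS5 and 4672 for mRpL42. The strongest promoter peaks of mRpS17, mRpS5 and mRpL42 had ranks of 3736, 4309 and 3802 in replicate 1 and of 4901, 5155 and 7007 in replicate 3. For mRpS17 the summit in replicate 1 lay 386 bp upstream of the TSS, against 181 bp upstream in the IDR-thresholded list. For mRpS25 the strongest promoter peak in each replicate was a different one, nearer its TSS, with ranks of 4476 and 17180. Outside the IDR threshold but with a promoter peak in the pooled list lay mRpS11 at rank 5184, mRpL1 at 5427, mRpL54 at 5769, mRpS18A at 5874, mRpL28 at 7481 and mRpL13 at 7925. The first 4 of these and mRpL13 also had a promoter peak in the full list of each replicate, and mRpL28 in that of replicate 1. mRpL1 corresponds to the protein of the mobile L1 stalk of bacterial ribosomes. The other 4 genes of this kind were mRpL36, mRpL12, mRpL55 and mRpL45, at ranks of 9503 to 23232.

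The 11 genes without a promoter peak in any list were mRpS9, mRpS28, mRpS33, mRpS34 and mRpS35 of the small subunit and mRpL14, mRpL15, mRpL30, mRpL33, mRpL40 and mRpL46 of the large subunit. The stalk that recruits translation factors in bacteria is built on the counterpart of mRpL10 and carries that of mRpL12. Neither gene had a peak past the IDR threshold, but most coding genes had none there, with 23.7% having one. Of the 3 genes related to bacterial S18, mRpS18B had a peak of rank 2169, mRpS18A had one in the pooled list and in each replicate's list but not past the IDR threshold, and mRpS18C had one in the list of replicate 1 only, at rank 22472. These 2 groupings by role were made after the values were seen.

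Most of these genes are arranged head-to-head. A gene was counted so when the TSS of a protein-coding gene on the opposite strand lay at most 1000 bp upstream of its own. By this definition 58 of 73 genes (79.5%) had a partner, against 5052 of 13945 coding genes (36.2%). The 58 partners were all different, and no pair consisted of 2 mitochondrial ribosomal protein genes. The gap between the TSSs had a median of 283 bp (20 to 793 bp), and over all head-to-head coding genes it was 298 bp.

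The arrangement went with the peaks. Of the 58 head-to-head genes, 36 had a promoter peak in the IDR-thresholded list (62.1%, interval 49.2 to 73.4%), against 43.0% of all head-to-head coding genes. Of the 15 others, 3 had one (20%, interval 7.05 to 45.2%), against 12.8% of the coding genes without a partner, and these 3 were mRpL9, mRpL19 and mRpS5. Within each arrangement the share of the mitochondrial ribosomal protein genes stood closer to that of all coding genes than it did over both arrangements together, and for genes without a partner the interval includes the share of all coding genes. By the number of annotated TSSs, 34 of 67 genes with 1 TSS had a peak (50.7%), against 18.7% of such coding genes, and 5 of the 6 genes with more, against 37.7%.

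In 31 of the 36 head-to-head genes with a peak (86.1%, against 75.1% for all coding genes), the summit lay between the start sites. It lay nearer the TSS of the ribosomal gene in 15 and nearer that of the partner in 21. Over all head-to-head coding genes with a peak, 1216 summits were nearer the own TSS and 952 nearer the partner's. In the cytoplasmic ribosomal protein genes it was 34 against 11. Over all coding genes both genes of a pair can enter, so a summit near both TSSs can add 1 to each side. No partner here is a member, so that count is not a like baseline for the 15 and 21. The median distance was 140 bp to the own TSS and 141.5 bp to the partner's, and in 34 of 36 the partner's TSS was also within 500 bp. Over all head-to-head coding genes with a peak, where both genes of a pair can again enter, the medians were 142 and 156 bp. There the partner's TSS was within 500 bp in 1861 of 2170. A peak in such a gap therefore cannot be given to 1 gene of the pair by position. When each peak counted only for the coding gene with the nearest TSS, 18 of the 73 genes kept a peak (24.7%), against 17.2% of all coding genes. Over all 39 genes the summit lay at a median of 139 bp upstream (quartiles 192 and 81 bp upstream), and it was upstream in 36 (92.3%). Both values were near those of all coding genes, at 135 bp and 91.0%.

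**Figure D1:**
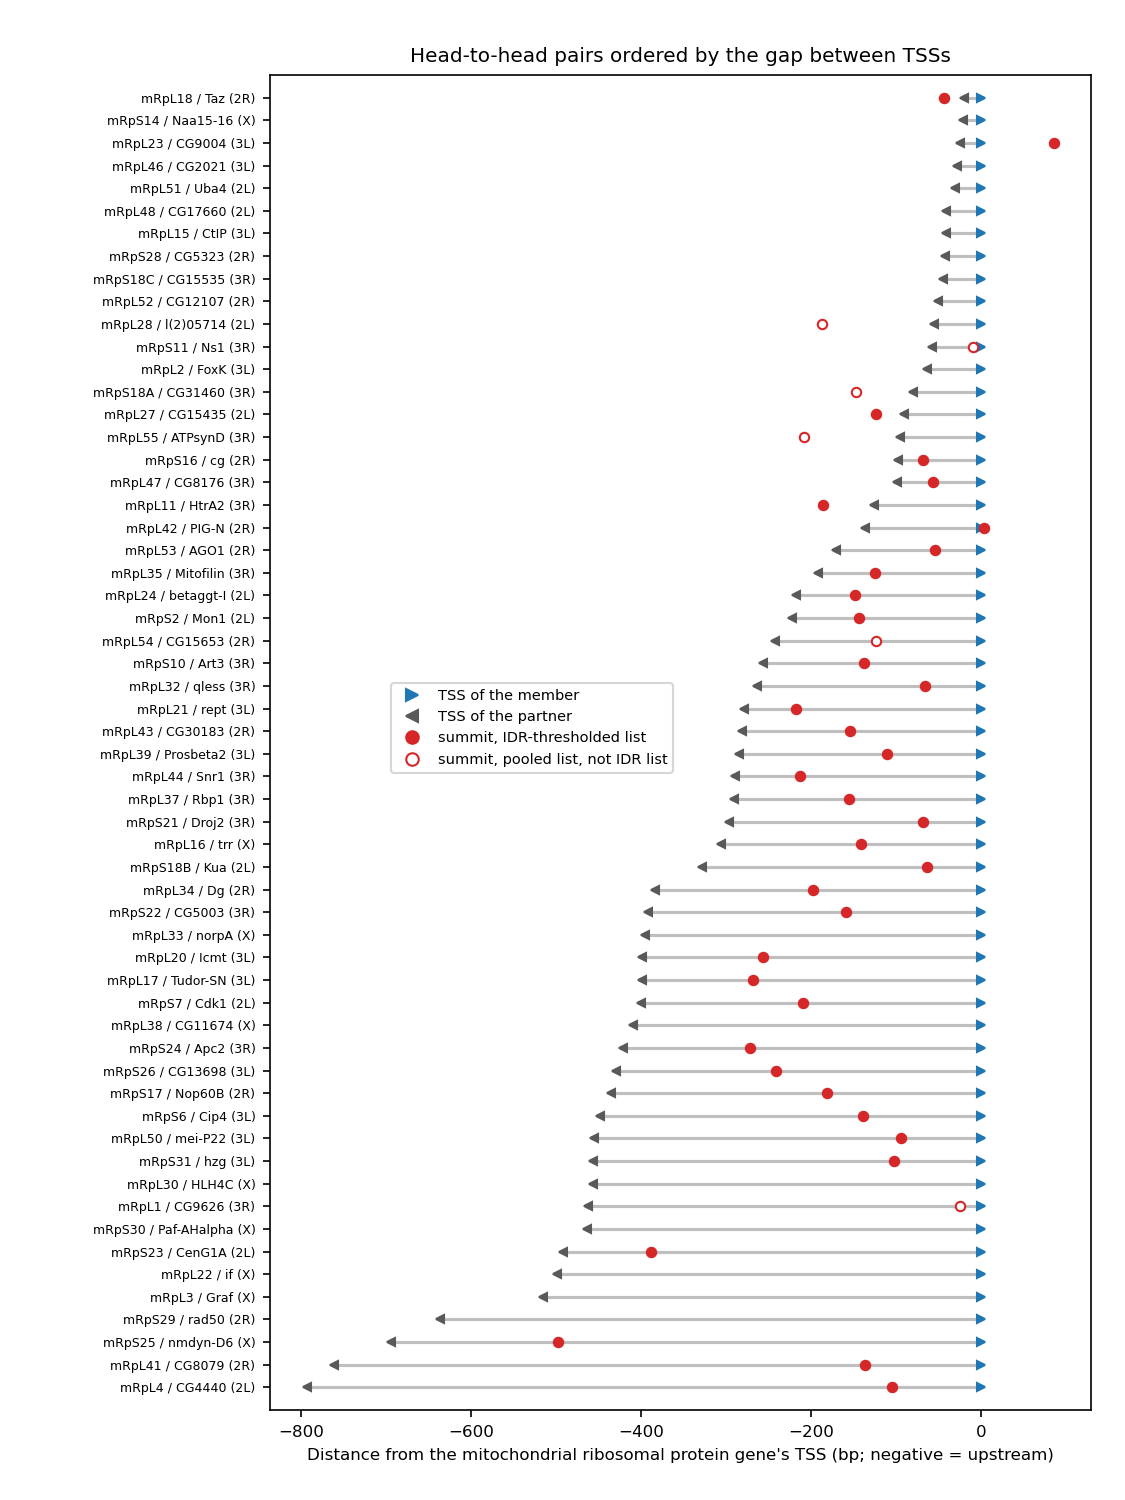
The 58 head-to-head pairs, ordered by the gap between the TSSs, with distance from the TSS of the ribosomal gene that forms the pair on the horizontal axis (bp, negative upstream) and the arm in brackets. Blue and grey triangles mark the TSS of the ribosomal gene and of the partner, filled circles the summit of the strongest promoter peak in the IDR-thresholded list, and open circles a summit in the pooled list that did not pass the IDR threshold; filled circles are sparse among the 18 shortest gaps and frequent from 100 bp upwards.

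The map of pairs led to a division at a gap of 100 bp, which was chosen after the data were seen. With a gap under 100 bp, 5 of 18 genes had a peak in the IDR-thresholded list (27.8%, interval 12.5 to 50.9%), against 35.7% of coding genes with such a gap. With a gap of 100 bp or more, 31 of 40 had one (77.5%, interval 62.5 to 87.7%), against 44.4%. The lower group lay near the level of all coding genes and the upper group above it. By finer steps the counts were 6 of 7 genes for gaps of 100 bp to under 250 bp, 22 of 28 for 250 bp to under 500 bp and 3 of 5 for longer gaps, where 44.6%, 54.1% and 29.9% of coding genes had a peak. When each peak counted only for the nearest coding TSS, 14 of the 40 genes with a gap of 100 bp or more kept one (35%). The share of all coding genes with a gap of 100 bp or more was not computed under that rule. The count for short gaps moved with the replicate: the 5038 strongest peaks of replicate 1 alone gave 8 of 18 and those of replicate 3 alone gave 4. Over all coding genes the counts moved the same way, with 3733 (26.8%) and 3046 (21.8%). The share of coding genes with such a gap was not computed under this cut. In the full lists, 15 of the 18 had a promoter peak in replicate 1 (83.3%) and 8 in replicate 3 (44.4%), where the shares of coding genes with such a gap were 74.0% and 57.2%. The first thus lay above that of coding genes and the second below it.

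Short gaps are printed whole, from TSS to TSS, on the strand of the ribosomal gene, to show how little sequence the pairs share. Capitals mark runs of 6 or more A or T bases, and the sequence is again from the release 6 RefSeq assembly. The first 3 pairs had no peak past the IDR threshold and the last 2 had one.
mRpL15 and CtIP (chr3L:20436209-20436250, minus strand): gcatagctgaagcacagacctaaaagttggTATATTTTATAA
mRpL2 and FoxK (chr3L:11120783-11120847, plus strand): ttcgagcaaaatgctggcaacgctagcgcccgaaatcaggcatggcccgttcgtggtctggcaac
mRpS18A and CG31460 (chr3R:8562593-8562673, minus strand): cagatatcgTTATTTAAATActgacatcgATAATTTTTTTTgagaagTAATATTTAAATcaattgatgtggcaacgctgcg
mRpL27 and CG15435 (chr2L:4459638-4459729, minus strand): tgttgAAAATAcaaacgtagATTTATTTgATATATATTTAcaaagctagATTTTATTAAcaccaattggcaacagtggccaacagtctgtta
mRpL47 and CG8176 (chr3R:9515908-9516007, minus strand): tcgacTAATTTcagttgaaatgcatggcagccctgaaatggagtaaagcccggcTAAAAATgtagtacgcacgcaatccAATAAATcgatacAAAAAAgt
The A + T content of these gaps was 66.7% for mRpL15, 41.5% for mRpL2, 70.4% for mRpS18A, 70.7% for mRpL27 and 60% for mRpL47. Over the gaps of under 100 bp whose sequence was read, the 3 with a peak had 60 to 70.7%, and the 11 without one had 36.4 to 70.4%. These pairs were picked as examples, and the ranges overlap.

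The X chromosome held 11 of the genes, and 2 of them had a peak in the IDR-thresholded list (18.2%, interval 5.14 to 47.7%), against 22.9% of all coding genes on X. These were mRpL16, at rank 2519, and mRpS25. Off X the count was 37 of 62 (59.7%), against 23.9%. Among genes with a gap of 100 bp or more, 29 of 32 off X had a peak (90.6%, interval 75.8 to 96.8%), against 45.6% of such coding genes, and 2 of 8 on X (25%, interval 7.15 to 59.1%), against 37.6%. All 32 of these genes off X had a promoter peak in the full list of each replicate, against 72.8% of such coding genes in replicate 1 and 63.9% in replicate 3. The 3 without a peak past the IDR threshold were mRpL1, mRpL54 and mRpS29. When each peak counted only for the nearest coding TSS, 13 of the 32 kept one (40.6%), and no coding share was computed for that rule. On X the replicates differed, since 8 of 11 genes had a promoter peak in the full list of replicate 1 and 2 in that of replicate 3, where all coding genes on X stood at 53.3% and 42.3%. The look at X came after the data were seen.

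The 93 genes of the cytoplasmic ribosome offer a second ribosome for comparison. Of these, 70 had a promoter peak in the IDR-thresholded list (75.3%). With a partner the count was 45 of 56 and without one 25 of 37, and with a gap under 100 bp it was 6 of 7. On X, 14 of 15 had a peak. The shares of genes without a partner and of genes on X were thus higher in the cytoplasmic set than in the mitochondrial set, where they were 3 of 15 and 2 of 11.

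**Figure D2:**
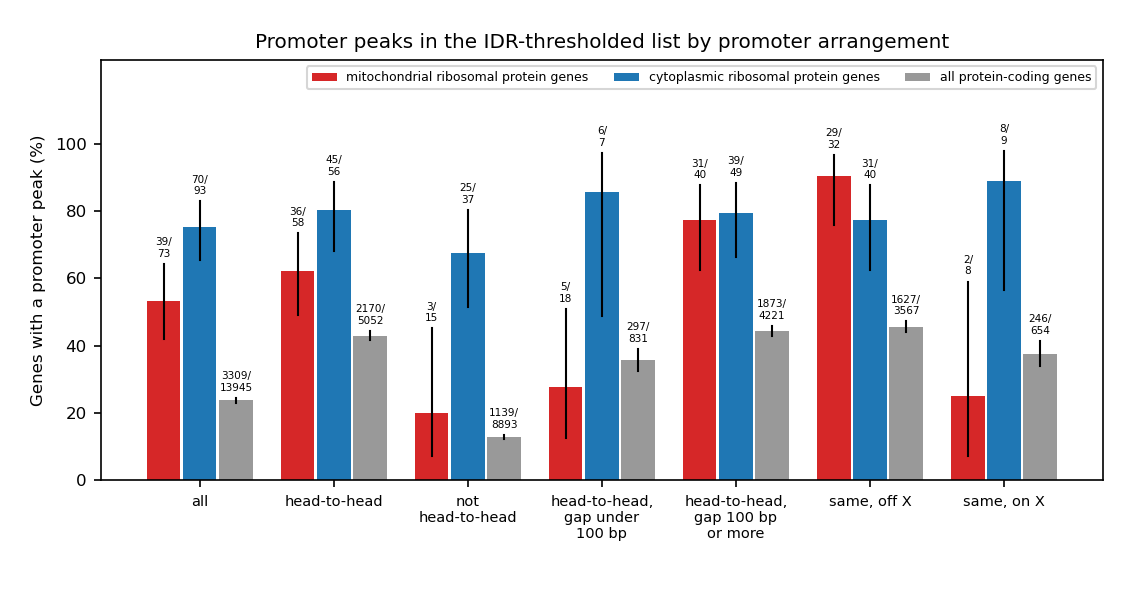
Share of genes with a promoter peak in the IDR-thresholded list (vertical axis, %) by promoter arrangement, for the mitochondrial ribosomal protein genes (red), the cytoplasmic ones (blue) and all protein-coding genes (grey). Bars are shares with counts above them, lines are 95% Wilson intervals, and the red bars run from 20% for genes without a head-to-head partner to 90.6% for pairs off X with a gap of 100 bp or more. Each peak counted for every gene with a TSS within 500 bp of its summit.

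The replicates placed the summits of most shared peaks close together. The peaks were selected in part for such agreement, since the IDR threshold keeps peaks that the replicates rank alike. Of the 39 peaks, 29 overlapped a peak of each replicate by at least 50% of both lengths. This was 74.4%, against 80.3% of the promoter peaks of all coding genes. All 39 overlapped a peak of each replicate by at least 1 bp, against 98.2% of the promoter peaks of all coding genes. A summit lay within 100 bp in each replicate for 38 (97.4%), against 96.0% of the promoter peaks of all coding genes. Over the 29, the summits of replicates 1 and 3 differed by a median of 14 bp (1 to 69 bp), and for all coding genes by 19 bp. The overlap required of these peaks itself limits how far their summits can differ. The signals of the 29 peaks in the replicates had a Spearman rho of 0.81, given as a description across peaks that share their libraries, and 0.84 over the 1855 peaks of all coding genes. Replicate 1 ranked 23 of the 29 higher than replicate 3 did (79.3%, against 64.0% for all coding genes). The median ranks were 2149 in replicate 1 and 2978 in replicate 3, and 2016 and 2192 for all coding genes.

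Peaks found in 1 replicate's full list alone were mostly from replicate 1. They numbered 15 in replicate 1, where the count over all coding genes was 2088 (15%), and 1 in replicate 3, mRpL45, where it was 1024 (7.34%). The 15 were mRpL2, mRpL3, mRpL10, mRpL12, mRpL22, mRpL28, mRpL36, mRpL38, mRpL48, mRpL49, mRpL52, mRpL55, mRpS14, mRpS18C and mRpS30. Their ranks in replicate 1 ran from 2006 for mRpL10 to 23416 for mRpL52. mRpL10 was thus the strongest of them, and the nearest summit in replicate 3 was 13357 bp away.

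**Figure D3:**
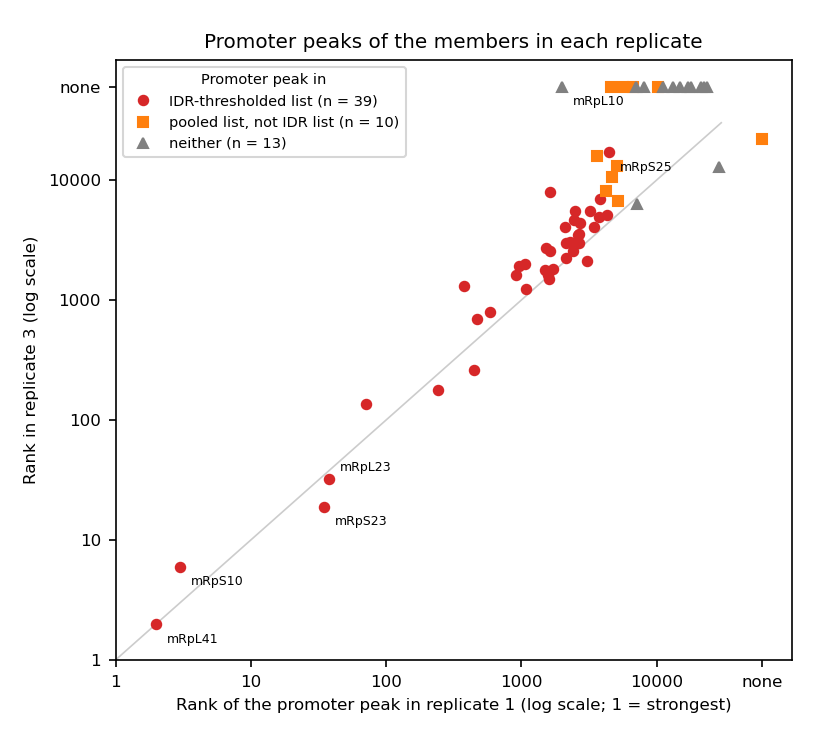
Rank of the strongest promoter peak of each gene in replicate 1 (horizontal) and replicate 3 (vertical), both on log scales with 1 the strongest, where "none" marks no promoter peak in that list. Red circles are the 39 genes of the IDR-thresholded list, orange squares the 10 with a peak in the pooled list that did not pass the IDR threshold and grey triangles the 13 with a peak in a replicate's list but in neither of these; the red points follow the diagonal from mRpL41 and mRpS10 down to far lower ranks, while most grey points have no peak in replicate 3. The point of mRpS25 shows a peak other than its IDR-thresholded one. That of mRpS17 uses a replicate 1 peak with its summit 386 bp upstream of the TSS, against 181 bp upstream in the IDR-thresholded list.

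The summits lay in A + T-rich sequence. In the 101 bases around the summit the A + T content had a median of 72.3% over the 39 peaks (41.6 to 81.2%), and of 68.3% over the 2311 promoter peaks of all coding genes. In windows of the same length 600 bp to either side the medians were 48.5% and 53.0%. The content at the summit exceeded that of the flanks in 36 of 39 peaks (92.3%), against 83.1% over all coding genes. The promoters themselves, from 250 bases before to 50 after the TSS, differed less between genes with and without a peak in the IDR-thresholded list, with medians of 66.3% (48.3 to 74.3%) over 39 genes and 64.2% (42.3 to 71.7%) over 34. The ranges overlap over most of their length. Over all coding genes the medians were 63.0% and 61.3%. Base composition was examined after the data were seen, and its part in the peaks was not tested.

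**Figure D4:**
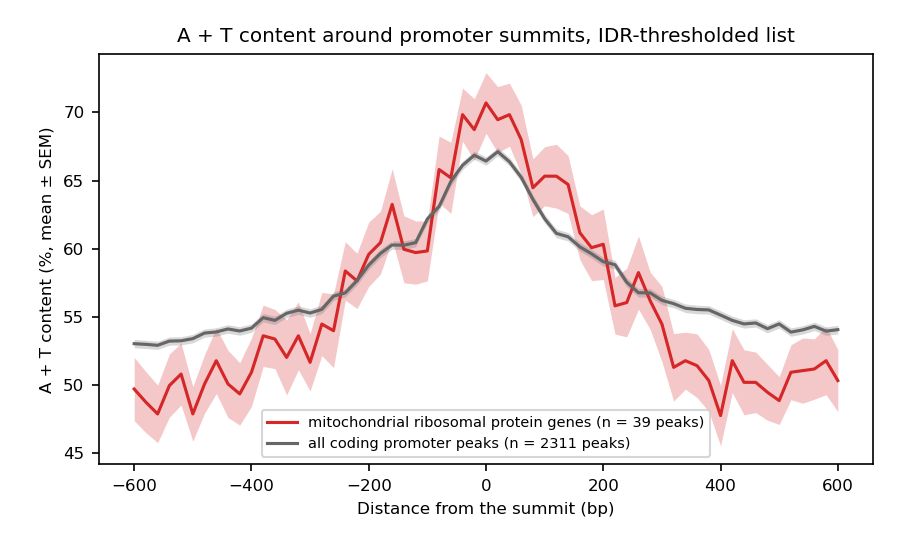
Mean A + T content (vertical axis, %) by distance from the summit (horizontal axis, bp) for the 39 peaks of mitochondrial ribosomal protein genes (red) and the 2311 promoter peaks of all coding genes (grey), with bands of 1 standard error over peaks. The red curve is highest at the summit and the grey one within 20 bp of it, both fall on either side, and the red curve lies above the grey at the centre and below it at 600 bp.

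Short sequence words named for known promoter factors were counted in the same promoters on both strands. The word CAGCTG, which reads the same on both strands, was present in 40 of 73 promoters (54.8%, interval 43.4 to 65.7%), against 17.9% of all coding promoters of this length and 9.68% of those of the cytoplasmic ribosomal protein genes. Its share was 21 of 39 (53.8%, interval 38.6 to 68.4%) in genes with a peak in the IDR-thresholded list and 19 of 34 (55.9%, interval 39.5 to 71.1%) in those without. The centre of the copy nearest the TSS lay at a median of 7 bp downstream of it (quartiles 14.8 bp upstream and 19 bp downstream). Over all coding promoters with the word, that median was 43.5 bp upstream. Head-to-head coding genes held it in 22.2% and the 58 partners in 34.5%. The promoter windows of a pair can overlap, so the same copy can count for the ribosomal gene and its partner.

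Windows of up to 30 bases around the word, in capitals, show it in promoters with and without a peak, on the strand of the gene and from the release 6 RefSeq assembly. The first 4 genes had a peak in the IDR-thresholded list, and the last 4 had none there.
mRpL24 (chr2L:4945324-4945353, minus strand): ttcagttctcaaCAGCTGattgcaagccgc
mRpS2 (chr2L:4850413-4850442, minus strand): aacactacccacCAGCTGtttaccaaaatc
mRpS21 (chr3R:13381790-13381819, minus strand): agtgatattcatCAGCTGtttagcagtaca
mRpL32 (chr3R:31252844-31252873, plus strand): atatcgatagcaCAGCTGtttcctcttgcg
mRpL2 (chr3L:11120845-11120874, plus strand): aacgccgcgtaaCAGCTGttttcagccgca
mRpL40 (chr3R:11407929-11407958, plus strand): cagcaacaaaaaCAGCTGttcgtacattac
mRpS33 (chr3R:16436566-16436595, minus strand): gcacttggaaatCAGCTGtcgcttgttttt
mRpS35 (chr3L:2780875-2780904, plus strand): agtttctgtaaaCAGCTGattgcttgctat
The centre of the word lay within 26 bp of the TSS in all 8 of these promoters. In the 21 genes with both the word and a peak, distance was measured to the copy nearest the TSS, and 4 of these genes held 2 or more copies. The summit was a median of 132 bp from that copy (21 to 507 bp), and within 50 bp in 1 gene. That copy and the summit thus mostly occupied different places in the promoter, and distances to further copies were not measured. Within 100 bases of the summit on either side, 7 of 39 windows held the word (17.9%), against 10.5% of those of all coding promoter peaks.

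The other words gave smaller differences from all coding promoters. TATCGATA, the DNA replication-related element, was present in 20.5% of the 73 promoters, against 8.94% of all coding promoters, with 25.6% (interval 14.6 to 41.1%) in genes with a peak and 14.7% (6.45 to 30.1%) in those without. CGATA, the core bound by the insulator protein BEAF-32, which also lies within TATCGATA, was present in 57.5%, against 46.9%, and here the genes with a peak stood lower, at 48.7% (interval 33.9 to 63.8%), than those without, at 67.6% (50.8 to 80.9%). Promoters with CGATA but no TATCGATA made up 23.1% (interval 12.7 to 38.3%) of all promoters of genes with a peak. They made up 52.9% (36.7 to 68.6%) of those of genes without one, and 38.0% of all coding promoters. GGTCACAC, of the factor M1BP, stood at 11.0% against 7.54%, the E-box CACGTG at 6.85% against 4.26%, TATAAA at 46.6% against 45.3%, and GCGCATGC at 1.37% against 1.06%. GAGAG, of the GAGA factor, was less frequent, at 16.4% against 30.2%, as was TCAGT, of the initiator, at 38.4% against 51.8%. The cytoplasmic ribosomal protein genes departed from all coding promoters in the same direction for these words, with 17.2% for GAGAG and 36.6% for TCAGT. The same held for TATCGATA, at 30.1%, and CGATA, at 71.0%. A match to a word is a description of the sequence and shows no binding.

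Other genes of mitochondrial gene expression were read in the IDR-thresholded list against the 23.7% of all coding genes. Of the ribosomal proteins with other names, tko, for the counterpart of S12, and bonsai, for that of S15, neither had one, although tko had rank 5903 in the pooled list. None of the 9 translation factor genes found by name had one, a count that allows a share of up to 29.9% by the Wilson interval. Of 15 genes for mitochondrial aminoacyl-tRNA synthetases, which charge transfer RNAs with amino acids, 4 had one (26.7%), a share near that of all coding genes, led by ArgRS-m at rank 2625 and LeuRS-m at rank 2712. Of 12 genes for maintenance and transcription of mitochondrial DNA, 5 had one (41.7%), with mtSSB, the single-stranded DNA binding protein, at rank 648 and mTerf5 at rank 1606, followed by PolG2, PolrMT and mTerf3. The share of the ribosomal protein genes, 53.4%, was above each of these, but the lists hold 2 to 15 genes, with wide intervals, and fewer of their genes are head-to-head: 3 of 9 translation factors, 7 of 15 synthetases and 8 of 12 maintenance and transcription genes, against 58 of 73. The part of this arrangement in the shares was not tested. CG43347 itself, on X, had no promoter peak in any list.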

How the data were processed

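The 4 peak lists of 2 biological replicates were used as deposited, on dm6. Per the deposited notes, each alignment and a control went into the peak calls. Neither the caller nor the IDR version is given in the sources used here. The peak signal is the authors' deposited value on a scale that these sources do not define, and it served only to rank peaks within a list. The −log10 q values that the authors deposited (2.45 to 3.81 among IDR-thresholded peaks) did not enter the ranking. The summit is the offset that the authors deposited for each peak. Depth is unknown.

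TSSs and gene names came from Ensembl release 115 (BDGP 6.54), and sequence from the RefSeq release 6 assembly, whose arm names and lengths match dm6. Python 3.11.15, numpy 2.4.6, pandas 2.3.3, scipy 1.17.1 and matplotlib 3.10.9 were used. The assignment of peaks to promoters and the pairing of genes were tested on simulated data. Members and gene lists were chosen with earlier results of these data known. Named genes were the 12 strongest and 4 weakest in the IDR-thresholded list, the 6 strongest with a pooled peak short of the IDR threshold, those found in 1 replicate only or in no list, and partners of these. Exceptions are stated in the text. The 2 samples form 1 group, so no test was run. Alternatives were distances of 250 and 1000 bp, the stronger 2519 peaks, the nearest coding TSS only, each replicate left out, other definitions of shared peaks and of head-to-head pairs, and windows at the summit for words. Those for values by subunit, gap and X were added after the data were seen.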

Additional observations from a re-analysis of the deposited data

How the results depend on the processing

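Of 102 values recomputed under other settings, 79 stayed within 1.5 times the reported count or within the spread between replicates, and 23 did not, among them the shares of 4 words, which were lower around the summit. With only the stronger 2519 peaks, 24 of the 73 genes and 2061 of all coding genes had a promoter peak, with 13 of the large subunit, 2 with a gap under 100 bp, 1 on X and 0 of the genes without a partner. With each peak given to the nearest coding TSS only, the counts were 18 of the 73, 15 of 58 head-to-head, 11 of 47 large-subunit and 7 of 26 small-subunit genes. They were 1 of 18 with a gap under 100 bp and 14 of 40 with a gap of 100 bp or more (35%). Of the latter, 13 of 32 off X kept a peak (40.6%), and 1 of the 11 genes on X did. The shares of all coding genes by gap and arm were not computed under this rule. A distance of 250 bp left 1 gene on X. With partners counted only up to 500 bp, 6 of 20 genes without a partner had a peak. With the strongest 5038 peaks of 1 replicate in place of the IDR-thresholded list (without replicate 1 or 3), the counts ran from 33 to 44 of the 73 genes, 3046 to 3733 of all coding genes, 31 to 40 head-to-head, 2 to 4 others, 21 to 27 large-subunit, 12 to 17 small-subunit, 4 to 8 with a gap under 100 bp, 27 to 32 with a longer gap, 26 to 30 of these off X and 1 to 2 on X. The median distance of the summit from the TSS then ran from -138 to -128 bp, where the replicates differed by an SD of 7.07 bp. The cause of these shifts was not tested. No paired analysis was possible because the samples form 1 group. Lists of 2 to 18 genes give wide intervals, and without read counts a missing peak cannot be told from weak enrichment.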

Other observations

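A few members gave unlike values in different lists. mRpL10 had a promoter peak of rank 2006 in replicate 1, 118 bp upstream of its TSS, while the nearest summits were 13414 bp away in the pooled list and 13357 bp away in replicate 3. mRpS29, whose human counterpart is the GTP-binding protein DAP3, had promoter peaks of rank 7149 at 129 bp upstream in replicate 1 and of rank 6362 at 434 bp upstream in replicate 3, and the nearest pooled summit, of rank 5750, lay 526 bp upstream, outside the limit of 500 bp. mRpS25 had its IDR-thresholded summit 498 bp upstream, 197 bp from the TSS of its partner nmdyn-D6, while a second pooled summit lay 91 bp upstream at rank 7911, and the strongest promoter peaks of the replicates lay at 91 and 63 bp upstream. The strongest promoter summit of mRpS17 lay 386 bp upstream in replicate 1 and 186 bp upstream in replicate 3. mRpL51 had ranks of 28990 in replicate 1 and 12884 in replicate 3 and no promoter peak in the pooled list.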
